A study of Mus musculus with 4 samples.

Results

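The subject is a group of 10 Krüppel-like factor (KLF) genes, Klf2, Klf3, Klf4, Klf6, Klf7, Klf9, Klf10, Klf11, Klf13 and Klf16, taken by symbol from the 16613 gene symbols in the count files. All 10 were listed and all 10 passed the filter on low counts, among 12123 genes that did. The RNA came from GFP+ bone marrow cells of recipient mice. These recipients had been given B220+ marrow cells transduced with N-myc, and the labels call the resulting cells N-myc-induced B-ALL, an acute leukaemia of B cell precursors, of strain C57BL/6. The donor cells were Anp32b+/+ (wild type, 2 libraries) or Anp32b-/- (knockout, 2 libraries). The introduced N-myc is common to both groups. The labels give neither the age of the mice nor how many leukaemias or animals each library represents, so p-values here speak for the spread among 4 libraries alone, which may be technical.

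KLF proteins bind GC-rich and CACCC-type DNA through 3 zinc fingers near their carboxyl end, and the family is sorted by what the rest of the protein recruits. KLF3, KLF8 and KLF12 carry a motif for the corepressor CtBP. KLF2, KLF4, KLF6 and KLF7 mostly activate transcription and recruit acetyltransferases, although KLF4 also represses. KLF9, KLF10, KLF11, KLF13 and KLF16 hold a site for the corepressor SIN3A. In lymphocytes KLF2 is known for quiescence and for the trafficking gene S1pr1, KLF3 for opposing part of the KLF2 programme in B cells, and KLF4 and KLF9 for restraining B cell proliferation.

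The RefSeq promoter table (GRCm38.p6, the build named in the submitters' processing notes) held a window for 8 of the 10 genes, from 250 bases before the start site to 50 after it. Sequences are shown for the 4 genes that rose in knockout, and for Klf4, the close relative of Klf2 that did not pass the test. Each runs 5′ to 3′ on the gene's own strand and stops before the first transcribed base in RefSeq or GENCODE, whichever lies upstream. Capitals mark matches to the KLF core CACCC on either strand (GGGTG on the other), and also the MEF2 site in Klf2, the FOXO site GTAAACA in Klf9 and the E-box CACGTG in Klf4. The Klf2 stretch is chr8:72318812-72319032 on the plus strand, that of Klf3 chr5:64803271-64803387 (plus), that of Klf9 chr19:23140976-23141225 (plus), that of Klf13 chr7:63938916-63939165 (minus) and that of Klf4 chr4:55532476-55532725 (minus).
Klf2: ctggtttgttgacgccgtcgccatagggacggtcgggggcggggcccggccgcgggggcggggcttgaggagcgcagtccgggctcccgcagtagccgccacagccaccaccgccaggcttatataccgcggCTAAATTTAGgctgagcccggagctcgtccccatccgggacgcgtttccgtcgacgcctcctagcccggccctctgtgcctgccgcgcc
Klf3: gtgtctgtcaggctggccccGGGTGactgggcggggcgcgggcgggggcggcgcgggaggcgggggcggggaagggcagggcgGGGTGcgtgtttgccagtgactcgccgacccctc
Klf9: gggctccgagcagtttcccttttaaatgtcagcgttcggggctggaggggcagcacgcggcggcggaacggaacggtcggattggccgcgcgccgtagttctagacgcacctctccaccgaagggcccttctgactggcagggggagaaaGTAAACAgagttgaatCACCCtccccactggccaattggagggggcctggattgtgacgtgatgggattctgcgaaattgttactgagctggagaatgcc
Klf13: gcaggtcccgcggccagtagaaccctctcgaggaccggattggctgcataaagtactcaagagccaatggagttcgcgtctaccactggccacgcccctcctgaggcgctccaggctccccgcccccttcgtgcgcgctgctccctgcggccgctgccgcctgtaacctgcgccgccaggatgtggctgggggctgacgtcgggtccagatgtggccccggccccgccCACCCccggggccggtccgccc
Klf4: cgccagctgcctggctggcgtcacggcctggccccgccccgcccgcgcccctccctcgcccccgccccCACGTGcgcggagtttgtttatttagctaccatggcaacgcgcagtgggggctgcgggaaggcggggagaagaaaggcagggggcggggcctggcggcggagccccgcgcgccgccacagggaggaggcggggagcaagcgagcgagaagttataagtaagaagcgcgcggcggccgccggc

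In these windows the 4 raised genes shared the KLF core, which is common: 5 of 8 KLF windows and 57.5% of all 32851 promoter windows of the same length held it. Klf3 had 5 matches to the core over its whole window, and Klf2, Klf9 and Klf13 had 1 each, that of Klf2 lying 19 to 15 bases before its RefSeq start, past the printed stretch. Klf4, Klf6 and Klf11 had none, while Klf7, which did not rise, had 3. The GC box GGGCGG, to which SP and KLF proteins bind, was in 7 of the 8 windows (35.7% of all). It had 6 matches in Klf3 and none in Klf9. The set of all windows was not matched in G and C content, of which each KLF window held more than the median window. GC boxes and KLF cores shared a base at 1 place in Klf3 and at 1 in Klf13.

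**Figure D1:**
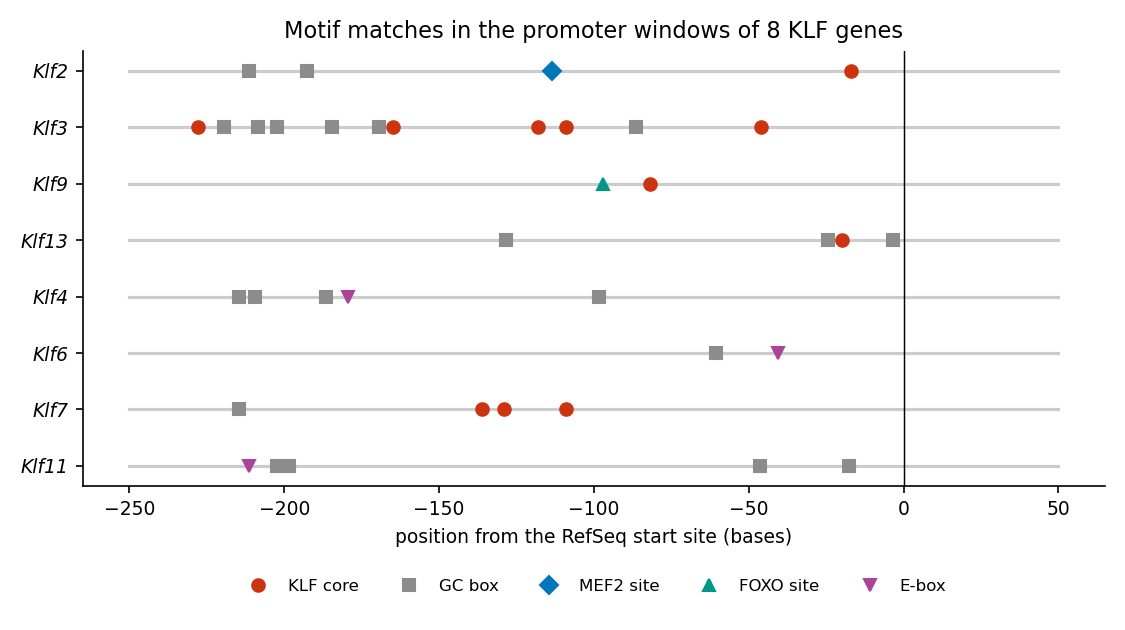
Matches to 5 motifs by distance in bases from the RefSeq start site (vertical line at 0) in the promoter windows of 8 KLF genes, the 4 raised ones on top; a symbol marks each match on either strand. The MEF2 match is in the Klf2 window alone and the FOXO match in the Klf9 window alone, and the 3 E-boxes are in Klf4, Klf6 and Klf11.

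The MEF2 site, bound by the factors through which the kinase ERK5 is known to drive Klf2, matched once in Klf2, 118 to 109 bases before the start, and in 0.557% of all windows. The FOXO site GTAAACA matched in Klf9, 100 to 94 bases before the start, and in 3.65% of all windows. An E-box CACGTG, the site of MYC-type factors, was present in Klf4, Klf6 and Klf11 (7.15% of all windows). No KLF window held the PU.1 site GAGGAAG (13.6% of all windows) or the glucocorticoid response element (0.475%), which says only that these letters are not in these windows. The windows were rich in G and C, from 58.3% in Klf7 to 77.7% in Klf11, where the median of all windows was 52.7%.

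The cells carried B lineage transcripts. All 11 B lineage markers were expressed. Their summed level was 7652 and 7618 CPM (reads of a gene scaled to the size of the library) in wild type. In knockout it was 6951 and 7057 CPM, with 5 of the 11 lower and none higher. All 11 neutrophil markers fell, from a summed 611 and 627 CPM to 119 and 120 CPM. Of 7 tested monocyte and macrophage markers 3 fell. Summed over all 9 listed, these markers were at 90.3 and 86.4 CPM in wild type and at 37.5 and 35.3 CPM in knockout. All 4 Y-linked genes fell (156 and 173 CPM against 42.5 and 41.7 CPM summed). Among 4 tested T cell markers Lat rose and Cd4 fell, and Cd3e, which defines T cells, had 2 and 4 reads in wild type and 0 in both knockout libraries. The 8 T cell genes summed to 41.5 and 44.6 CPM in wild type and 78.6 and 73.9 CPM in knockout, of which Lat alone held 35.0 and 38.4 against 75.9 and 70.4 CPM. The other 7 summed to 6.48 and 6.20 CPM in wild type and 2.77 and 3.46 CPM in knockout. Of 4 tested NK cell markers 2 fell. The 6 listed NK cell markers summed to 5.87 and 7.11 CPM in wild type and 2.0 and 2.01 CPM in knockout. Of 5 plasma cell markers 3 fell and 1 rose (672 and 671 CPM against 590 and 592 CPM summed). Erythroid (8 tested), megakaryocyte (2) and endothelial or stromal (1) markers gave no call. Anp32b was at 774 and 853 CPM in wild type and at 74.4 and 70.6 CPM in knockout. The libraries held from 19581575 to 19758671 estimated reads each. In bulk RNA, fewer cells of a type and less RNA per cell cannot be told apart.

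Of the 10 KLF genes, 4 rose in knockout and none fell at an adjusted p under 0.05 (edgeR's quasi-likelihood test with Benjamini-Hochberg adjustment over all 12123 genes). Among all tested genes, 10.9% were called higher, 12.6% lower and 23.6% either way. Klf2, Klf9 and Klf3 came close to doubling, and Klf13 rose less, by 0.26 on the log2 scale. The other 6, Klf4, Klf6, Klf7, Klf10, Klf11 and Klf16, had log2 fold changes between -0.15 and 0.10 and were not called. The median of the 10 was 0.09, against 0.00206 over all tested genes. In 7 of the 10 the genotypes did not overlap, 6 of them with knockout above and 1, Klf7, with knockout below, where 60.5% of all tested genes showed no overlap (30.0% with knockout above and 30.5% below). The neutrophil and Y-linked falls given above occurred in the same knockout libraries, and their part in the KLF values was not tested.

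**Figure D2:**
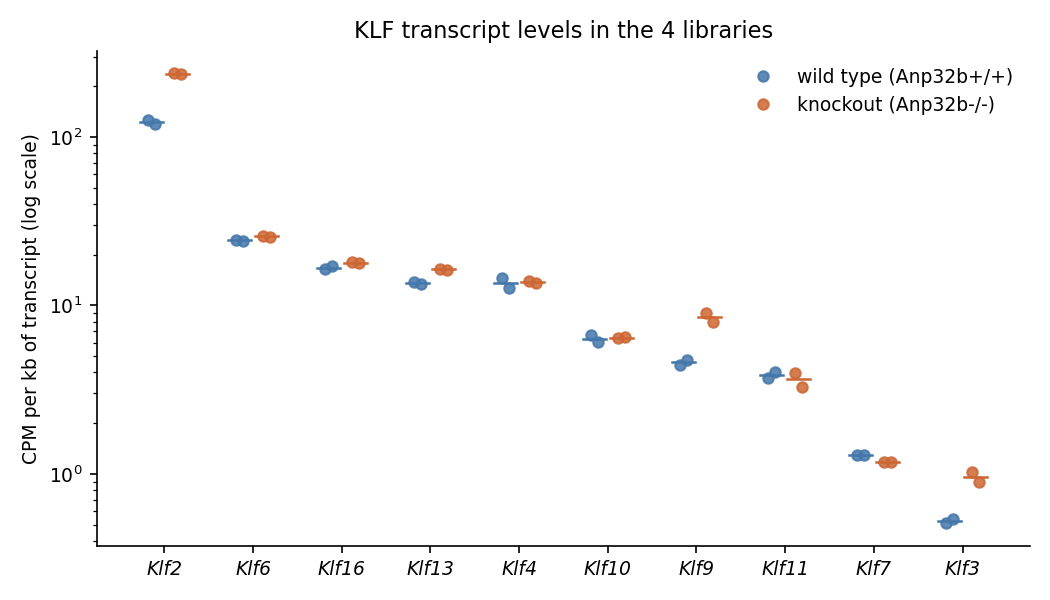
Level of each KLF gene in every library, in CPM per kb of the longest protein-coding GENCODE transcript on a log axis; dots are libraries, bars the mean of the 2 libraries of a genotype, blue for wild type and orange for knockout, in order of the wild-type level. Klf2 lies above all others in every library. The orange dots lie clear above the blue ones in Klf2, Klf9, Klf3 and Klf13. They do so more narrowly in Klf6 and Klf16, and lie below in Klf7.

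Per length of the longest transcript, Klf2 was the most abundant of the 10 in both genotypes. Its level was 125 and 119 CPM per kb in wild type and 239 and 236 CPM per kb in knockout. This placed it at the 95.2 and 94.7 percentile of 11649 tested genes with a length in the wild-type libraries and at 97.7 and 97.6 in the knockout libraries. Klf6 (24.3 ± 0.11 CPM per kb in wild type, SD, n = 2), Klf16 (16.7 ± 0.47), Klf13 (13.6 ± 0.21) and Klf4 (13.6 ± 1.2) followed, with Klf13 and Klf4 overlapping in range. Below them were Klf10 (6.35 ± 0.41), Klf9 (4.60 ± 0.24), Klf11 (3.85 ± 0.20), Klf7 (1.30 ± 0.00052) and Klf3 (0.53 ± 0.022), each pair of neighbours separated by more than the range of the libraries.

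On the longest forms the order changed at 1 place in knockout: Klf9, at 8.49 ± 0.72 CPM per kb (SD, n = 2), stood above Klf10 at 6.44 ± 0.075. Klf13, at 16.3 ± 0.19, no longer overlapped Klf4 at 13.7 ± 0.22. Summed over the 10 genes, the level was 211 and 204 CPM per kb in wild type and 334 and 329 in knockout. On these longest forms Klf2 made up 59.4% and 58.7% of that sum in wild type and 71.4% and 71.7% in knockout. Without Klf2 the sum was 85.6 and 84.2 CPM per kb against 95.8 and 93.0. Klf3, Klf7, Klf10 and Klf13 have more than 1 annotated form. On the shortest one Klf13 would stand at 179 CPM per kb in wild type, above Klf2, and at 215 in knockout, below it. Its place, the sums and the share of Klf2 thus rest on the form taken. Klf10 on its shortest form would stand at 9.02 CPM per kb in wild type and 9.15 in knockout, above Klf9 in both. Its change of place with Klf9 rests on the form too, as does the place of Klf7 (6.73 in wild type on the shortest).

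Among the activating KLF genes, Klf2 rose and Klf4, Klf6 and Klf7 were not called. Klf2 lies on chromosome 8 (72319062 to 72321654, plus strand). It was at 231 and 221 CPM in the wild-type libraries and at 441 and 435 CPM in the knockout libraries. Both knockout values stood far above both wild-type values, and replicates differed little. The ratio of the means was 1.94, which is 0.96 on the log2 scale (SE 0.05, 95% interval 0.84 to 1.07, edgeR adjusted p = 9.68e-09), from 8980 reads in wild type and 17020 in knockout. Klf2 stayed called in all 11 alternative settings, with log2 fold changes from 0.92 to 0.99.

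Klf4, on chromosome 4 (55527137 to 55532475, minus strand), is the factor best known from reprogramming to pluripotency. Its values were 43.8 and 38.6 CPM in wild type and 42.1 and 41.2 CPM in knockout. Both knockout libraries fell between the wild-type ones. By edgeR the difference was 0.01 on the log2 scale (SE 0.07, interval -0.14 to 0.17, adjusted p = 0.912), and its sign turned in 3 settings. The upper bound of this interval lies far below the change of Klf2.

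Klf6, an early response gene on chromosome 13 (5861489 to 5870393, plus strand), was at 103 and 102 CPM in wild type and at 109 and 108 CPM in knockout. The genotypes did not overlap, yet the log2 fold change of 0.08 (SE 0.05, interval -0.03 to 0.19) did not pass the edgeR test (adjusted p = 0.314). Klf7, on chromosome 1 (64029448 to 64122345, minus strand), was at 9.94 and 9.93 CPM in wild type and at 8.98 and 8.98 CPM in knockout. Its 395 wild-type and 349 knockout reads gave a ratio of 0.904 with a 95% counting interval (exact) of 0.781 to 1.05. Counting error alone thus spans no difference in Klf7, whose edgeR adjusted p was 0.398. In Klf6 (1.01 to 1.10) and Klf16 (1.004 to 1.14) the same interval lay above a ratio of 1, though neither passed the edgeR test. Exons of Klf7 overlap the antisense genes Gm26649 and Gm13748, and since no strand setting is given in the sources used here their reads cannot be told apart.

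Within each library the log2 ratio of Klf2 to Klf4 reads was 2.40 and 2.51 in wild type and 3.39 and 3.40 in knockout. The shift of 0.94 was thus larger than the gap between replicates. That of Klf2 to Klf6 was 1.17 and 1.11 against 2.02 and 2.01. Ratios of 8 pairs of related KLF genes were compared by a two-sided exact permutation test. With 2 libraries against 2 the exact test cannot go below p = 0.333, the value reached by 7 pairs (0.381 after adjustment over the 8), so it could not pass a threshold of 0.05.

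In the group that holds a SIN3A site, Klf9 and Klf13 rose and Klf10, Klf11 and Klf16 were not called. Klf9, a gene induced by glucocorticoid and thyroid hormone in many tissues, lies on chromosome 19 (23141226 to 23168129, plus strand). It was at 19.9 and 21.4 CPM in wild type and at 40.3 and 35.8 CPM in knockout. The knockout libraries differed more from each other than the wild-type ones did, but both were well above. The ratio of means was 1.85 and the log2 fold change 0.88 (SE 0.08, interval 0.71 to 1.06, edgeR adjusted p = 2.41e-06), and Klf9 too was called in all 11 alternative settings.

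Klf13, on chromosome 7 (63886351 to 63938915, minus strand), encodes a factor known for late activation of the chemokine gene Ccl5 in T cells. Its level was 88.1 and 86.2 CPM in wild type and 105 and 104 CPM in knockout. The genotypes were clear of each other by more than the gap within either pair. On the log2 scale this is 0.26 (SE 0.05, interval 0.15 to 0.38, adjusted p = 0.00246 by edgeR). Leaving out knockout replicate 1 (0.25, adjusted p = 0.0690) or knockout replicate 2 (0.28, adjusted p = 0.0879) ended the call with little change in size.

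Klf16, on chromosome 10 (80567121 to 80577296, minus strand), stood at 43.9 and 45.6 CPM in wild type and at 48.5 and 47.4 CPM in knockout. The groups did not overlap, but the log2 fold change of 0.10 (SE 0.06) was not called (edgeR adjusted p = 0.300). Klf10 and Klf11 are induced early by transforming growth factor beta (TGF-beta). Klf10, on chromosome 15 (38291464 to 38300711, minus strand), was at 20.2 and 18.5 CPM in wild type and 19.5 and 19.8 CPM in knockout. Klf11, on chromosome 12 (24651371 to 24662782, plus strand), was at 15.2 and 16.3 CPM against 16.2 and 13.5 CPM. In both genes the genotypes overlapped, with log2 fold changes of 0.02 (interval -0.17 to 0.21) and -0.08 (interval -0.31 to 0.14).

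**Figure D3:**
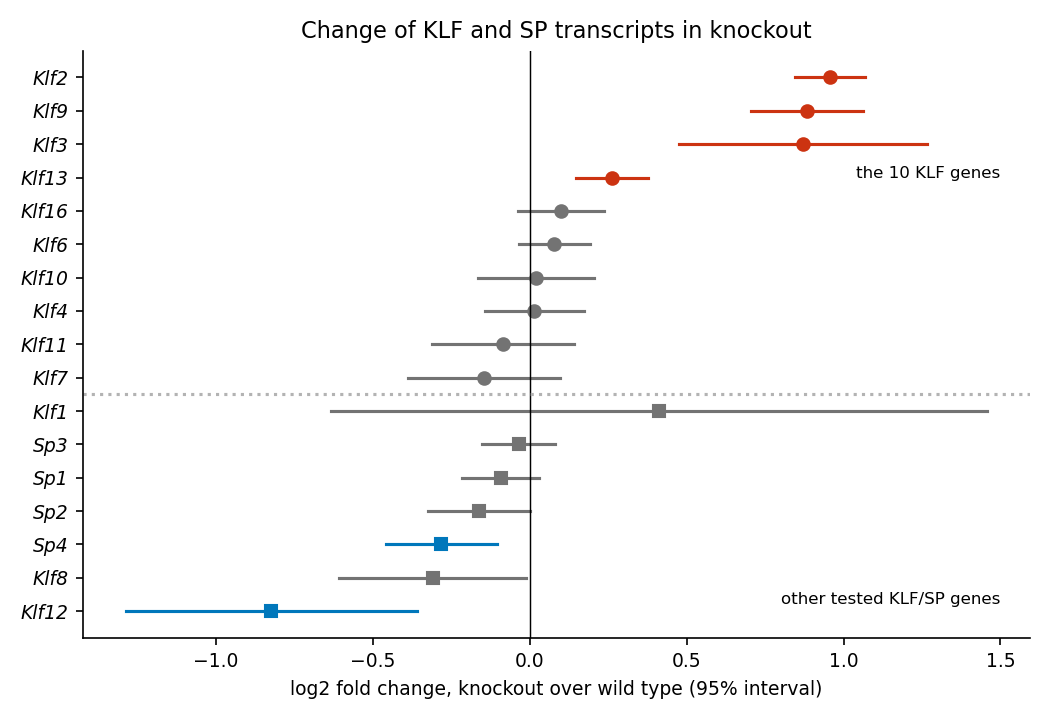
Log2 fold change, knockout over wild type, with its 95% interval from the edgeR fit, for the 10 KLF genes (circles, above the dotted line) and the 7 other KLF and SP genes tested (squares); red is called higher, blue called lower and grey not called. Klf2, Klf9 and Klf3 lie between 0.87 and 0.96 with intervals that overlap one another, while Klf12 and Sp4 are to the left of 0.

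In the CtBP-binding group, Klf3 rose while Klf12 fell. Klf3, on chromosome 5 (64803521 to 64832901, plus strand), was the least abundant of the 10, with 53 and 56 reads in wild type and 104 and 91 in knockout. These reads equal 2.66 and 2.82 CPM against 5.34 and 4.70 CPM. Both knockout libraries were higher, and the ratio of summed reads was 1.83 with a 95% counting interval of 1.44 to 2.34. In the edgeR fit this came to 0.87 on the log2 scale (SE 0.18, interval 0.48 to 1.26, adjusted p = 0.00317). Klf3 missed the threshold on leaving out knockout replicate 1 (0.78, adjusted p = 0.0523) and with DESeq2 (adjusted p = 0.0881), and it was not tested at a minimum of 10 CPM. An exon of the antisense gene Gm20033 overlaps Klf3, and reads of the 2 cannot be told apart.

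Klf12 had 69 and 85 reads in wild type and 40 and 45 in knockout, or 3.46 and 4.29 CPM against 2.05 and 2.32 CPM. Its log2 fold change was -0.82 (SE 0.22, edgeR adjusted p = 0.0130), which was no longer called on leaving out wild-type replicate 2 (adjusted p = 0.0796), knockout replicate 1 (0.113) or knockout replicate 2 (0.0971), with no filter (0.0737) and with DESeq2 (0.211). Klf8 was at 7.83 and 7.66 CPM against 5.70 and 6.82 CPM and was not called (-0.31, adjusted p = 0.130). The log2 ratio of Klf3 to Klf12 reads was -0.37 and -0.58 in wild type and 1.34 and 0.99 in knockout (exact permutation p = 0.333, the smallest possible with 2 against 2).

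Of the remaining KLF and SP family list (17 genes, 14 in the files, 7 tested), 2 fell and none rose, with a median of -0.16. Over all tested genes 12.6% fell and 10.9% rose. Sp4, which encodes a GC box factor, fell from 26.8 ± 2.08 to 22.1 ± 0.27 CPM (SD, n = 2, log2 fold change -0.28, edgeR adjusted p = 0.0233). It was no longer called on leaving out wild-type replicate 1 (-0.20, adjusted p = 0.114), knockout replicate 1 (0.128) or knockout replicate 2 (0.227), with no filter (0.112) and with DESeq2 (0.276). Klf1, the erythroid KLF, had 16 and 7 reads in wild type and 20 and 10 in knockout and was not called. Klf5, Klf15 and Klf17 had at most 4 reads in any library and fell below the filter.

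Of 13 tested cofactor genes of KLF proteins, 1 rose and 1 fell (median -0.03), where 10.9% of all tested genes rose and 12.6% fell. The riser was Ctbp2, a CtBP gene, with 39 and 31 reads in wild type and 170 and 167 in knockout. At 1.96 and 1.56 CPM against 8.73 and 8.62 CPM the genotypes were far apart, by 2.30 on the log2 scale (SE 0.18, edgeR adjusted p = 3.41e-07), called in each of the 10 alternatives that tested it. Its paralogue Ctbp1 was at 366 and 372 CPM in the wild-type libraries and 353 and 350 CPM in the knockout ones and was not called (-0.07, adjusted p = 0.348). Kat2b, which encodes the acetyltransferase PCAF, fell from 24.9 ± 0.079 to 17.9 ± 2.15 CPM (-0.48, adjusted p = 0.00160), not called on leaving out knockout replicate 2 (-0.36, adjusted p = 0.0872) or with no filter (0.0605). Among 8 tested ubiquitin ligase genes, which include Wwp1 and Fbxw7 of KLF2 turnover, 1 rose, Cul1 (0.16, adjusted p = 0.0336). Cul1 kept no call in 6 of 11 alternatives, with adjusted p = 0.331 when knockout replicate 1 was left out and 0.220 when knockout replicate 2 was.

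No tested regulator of the ERK5-MEF2 and FOXO type was called higher. Of 12 tested genes of the ERK5-MEF2 route and the FOXO group, with the non-FOXO gene Foxp1 added, none rose and 3 fell (median -0.07). The shares over all tested genes were 10.9% and 12.6%. Foxo1, whose product activates Klf2 in lymphocytes, was at 127 and 124 CPM in wild type and at 68.4 and 68.9 CPM in knockout. The log2 fold change was -0.87 (SE 0.05, edgeR adjusted p = 3.62e-08), so Foxo1 RNA fell where Klf2 RNA rose. Protein activity was not measured, and whether any gene of this list acts on Klf2 here was not tested. Foxo3 (-0.32, adjusted p = 0.0128) and Foxp1 (-0.20, adjusted p = 0.0146) were the others. Foxo3 was not called on leaving out wild-type replicate 1 (-0.18, adjusted p = 0.0813), knockout replicate 1 (0.0820) or knockout replicate 2 (0.231), with no filter (0.160) and with DESeq2 (0.0848). Foxp1 lost it without knockout replicate 1 (0.0862) or 2 (0.335) and with no filter (0.0929). Mapk7, the ERK5 gene, and Mef2a, Mef2c and Mef2d were not called.

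Glucocorticoid-induced genes, the setting in which Klf9 is best known, went both ways. Of 9 tested genes of the receptor and its induced set, 4 rose and 1 fell (median 0.17), where 10.9% of all tested genes rose and 12.6% fell. Fkbp5, a co-chaperone gene that the receptor induces, was at 79.7 and 73.3 CPM in wild type and at 151 and 147 CPM in knockout (0.97 on the log2 scale, SE 0.06, edgeR adjusted p = 2.39e-08). Tsc22d3, which encodes GILZ, was at 71.6 and 72.4 CPM against 140 and 135 CPM (0.94, SE 0.05). In each of these genes both knockout libraries lay above both wild-type ones. Nr3c1, the receptor gene, rose from 56.5 ± 3.88 to 78.1 ± 2.41 CPM (SD, n = 2), a log2 fold change of 0.47. Sgk1, also a receptor target, went the other way, from 138 ± 9.12 to 75.3 ± 1.76 CPM (-0.88, adjusted p = 8.89e-08). Per1, named after its value was seen, rose by 0.29 (adjusted p = 0.00817), not called on leaving out knockout replicate 1 (0.119) or 2 (0.0936), with no filter (0.0642) and with DESeq2 (0.0979).

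TGF-beta genes are the usual inducers of Klf10 and Klf11. Of 13 tested, 2 rose and none fell (median 0.04), where 10.9% of all tested genes rose and 12.6% fell. Ski, a repressor of SMAD signalling, rose from 13.5 ± 0.28 to 20.3 ± 0.24 CPM (SD, n = 2, log2 fold change 0.59, edgeR adjusted p = 0.000204). Tgif1, another corepressor gene of that route, rose by 0.23 (adjusted p = 0.0148), not called on leaving out knockout replicate 2 (0.17, adjusted p = 0.288), with no filter (0.0859) and with DESeq2 (0.107). Ligand, receptor and SMAD genes were not called.

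**Figure D4:**
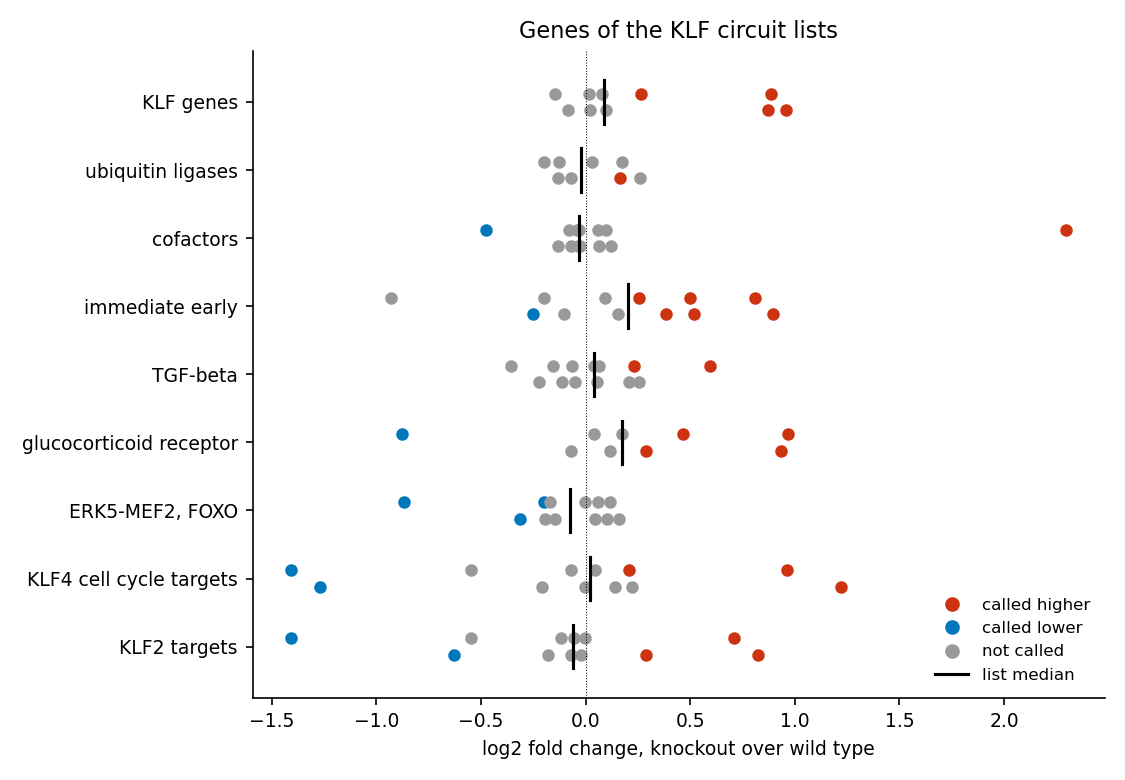
Log2 fold change, knockout over wild type, of each tested gene (dots, staggered for legibility) in the KLF group and 8 lists of its regulators, partners and targets; red is called higher, blue called lower, grey not called, and the black bar is the list median. The list medians lie between -0.07 and 0.20. Called genes lie on both sides in the trafficking, cell cycle, glucocorticoid receptor, immediate early and cofactor lists.

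Of the trafficking genes known as KLF2 targets, S1pr1 and Itgb7 rose. S1pr1, the sphingosine phosphate receptor that lets lymphocytes leave tissues, had 226 and 257 reads in wild type and 423 and 414 in knockout, or 12.2 ± 1.14 against 21.5 ± 0.24 CPM (SD, n = 2). The genotypes did not overlap, and the change of 0.83 on the log2 scale (SE 0.10, interval 0.62 to 1.03, edgeR adjusted p = 1.75e-05) was called in all 11 alternatives. Itgb7, the integrin beta 7 gene, had 88 and 91 reads in wild type and 145 and 141 in knockout (0.71, SE 0.14, adjusted p = 0.00249), and lost its call with DESeq2 alone (0.0827).

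Over the whole list, of 12 tested genes 3 rose and 2 fell, with a median of -0.06, where 10.9% of all tested genes rose and 12.6% fell. Cd69, an activation marker whose protein removes the S1pr1 product from the surface, was at 201 and 218 CPM in wild type and at 136 and 135 CPM in knockout (-0.63, SE 0.06, edgeR adjusted p = 1.32e-06). Cdkn1a is the p21 gene, which KLF2 and KLF4 are known to induce. It fell from 49.6 ± 2.11 to 18.7 ± 1.75 CPM (SD, n = 2, -1.41, edgeR adjusted p = 1.64e-08), while Klf2 rose and Klf4 was not called. KLF protein was not measured, and whether either factor acts on Cdkn1a here was not tested. Ccr7, S1pr4, Il7r and Thbd were not called.

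Cell cycle genes known for KLF4 control changed in both directions (3 of 12 rose and 2 fell, median 0.02). Among all tested genes 10.9% rose and 12.6% fell. The cyclin gene Ccnd1 rose from 14.1 ± 0.38 to 32.8 ± 0.65 CPM (SD, n = 2, log2 fold change 1.22, edgeR adjusted p = 6.48e-08). Ccnd2 was at 227 and 226 CPM in wild type and at 450 and 433 CPM in knockout (0.96, SE 0.05). Myc fell from 83.0 ± 5.29 to 34.4 ± 1.09 CPM (-1.27), beside the fall of Cdkn1a, which is also on this list. Ccne1, named after its value was seen, rose by 0.21 (adjusted p = 0.0186), not called on leaving out knockout replicate 1 (0.116) or 2 (0.257), with no filter (0.0798) and with DESeq2 (0.129). In a list of 7 tested globin and red cell genes, the classic targets of KLF1, none was called (median 0.09), and the most abundant, Hba-a1, was at 75.5 ± 13.7 and 89.1 ± 0.32 CPM (0.24, adjusted p = 0.0669). Its wild-type libraries lay far apart, and it was called higher without wild-type replicate 2 (0.43, adjusted p = 2.53e-05).

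Immediate early genes, the class to which several KLF genes belong, more often rose than fell: 6 of 12 tested rose and 1 fell (median 0.20). Over all tested genes 10.9% rose and 12.6% fell. Fosb rose from 391 ± 29.9 to 687 ± 26.6 CPM (SD, n = 2, log2 fold change 0.81, edgeR adjusted p = 2.07e-07). Fos (0.50), Junb (0.52) and Zfp36 (0.38) rose as well, and these 4 were called in all 11 alternatives. The others, named after their values were seen, were Nr4a1 (0.89, adjusted p = 0.000201), Jund (0.25, 0.00438) and, falling, Atf3 (-0.25, 0.0162). Jund was not called without knockout replicate 1 (0.0997) or 2 (0.156) or with no filter (0.0770). Atf3 was not called without knockout replicate 1 (0.180) or 2 (0.136), with no filter (0.0667) or with DESeq2 (0.213). Of the KLF genes, Klf2, Klf3, Klf9 and Klf13 were called higher, while Klf4, Klf6, Klf7, Klf10, Klf11 and Klf16 were not called.

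Across the 4 libraries, the genes whose pattern lay nearest to that of Klf2 were Fkbp5, Ccnd2 and Pou2f2, which encodes the B cell octamer factor OCT2. Nearness was the Euclidean distance between centred log2 CPM values, over 9219 other genes of at least 5 CPM, and came to 0.042, 0.052 and 0.053. With only 4 libraries in 2 genotypes this ranks genes by a like fold change and little more. Pou2f2 was at 32.2 and 31.8 CPM in wild type and at 63.1 and 60.0 CPM in knockout, a rise of 0.94 on the log2 scale (edgeR adjusted p = 1.12e-07). Spi1, the PU.1 gene named in the series title, was at 68.3 and 62.4 CPM in wild type and at 64.7 and 68.2 CPM in knockout, and the genotypes overlapped (0.02, adjusted p = 0.833). Mycn was at 1013 and 857 CPM against 944 and 921 CPM.

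**Figure D5:**
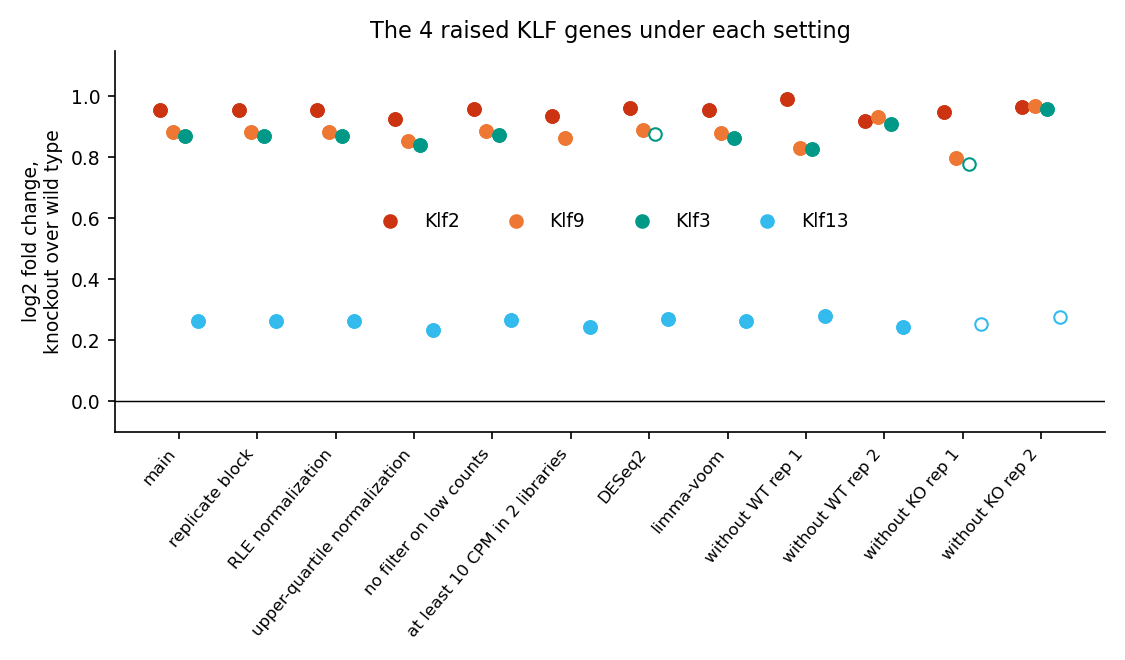
Log2 fold change of the 4 raised KLF genes in the reported fit (main) and under each of 11 alternative settings; filled circles are called at an adjusted p under 0.05 and open circles are not, and Klf3 has no point at the filter of 10 CPM. Klf2 and Klf9 are filled throughout, Klf3 is open with DESeq2 and without knockout replicate 1, and Klf13 without either knockout replicate.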

How the data were processed

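RNA-seq of 4 libraries was used, grouped by genotype. The authors deposited 1 file per library with estimated counts (expected counts, some with decimals) per gene symbol. HISAT2 2.0.4 and DESeq2 1.4.5 are listed with GRCm38 in the submitters' processing notes. For counting tool, annotation, strand setting and filters the answer is: not given in the sources used here.

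Counts were rounded and tested with edgeR 4.0.16 (quasi-likelihood, TMM, filterByExpr with a minimum count of 10, no covariate, R 4.3.3). The 4490 symbols below the filter were not tested. The SE is the absolute log2 fold change over the square root of F. A call is an adjusted p under 0.05. At these depths, after TMM scaling, 3 reads equal 0.151 to 0.155 CPM. This limit and all intervals on reads cover counting error only. CPM per kb uses the longest protein-coding transcript of GENCODE's basic set. Log2 ratios within a library use a prior count of 2. Motifs were searched on both strands, with MEF2 searched as its usual consensus.

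The KLF genes and all gene lists were chosen with earlier results of these data known. Named genes are all 10 KLF genes, Anp32b, Spi1 and Mycn, up to 4 called genes of smallest p per list (or the most abundant where none was called), and the 3 genes nearest in pattern to Klf2. A gene counted in the KLF2 target list is not reported here by name. Alternatives were a replicate block, RLE and upper-quartile normalization, other filters, DESeq2 1.42.0, limma-voom (limma 3.58.1) and leaving out each library (its lone partner is taken to vary as the other genotype does). On counts simulated for this comparison (12192 genes tested in 1 draw), the share of changed genes of at least 5 CPM that was recovered was 68% at 1.25-fold, 96% at 1.5-fold and 100% at 2-fold and at 4-fold, and 4 of 186 calls were false. No change under 1.25-fold was simulated. The draw changed 200 genes and gave all genes of both genotypes 1 common spread beyond counting error (coefficient of variation 0.0409). In the data, wild-type replicates differed more than knockout ones (chi-square per degree of freedom 5.56 against 2.14). The simulated shares may therefore not hold for these libraries. Klf3 and Klf12 lie below 5 CPM in wild type and are not covered.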

Additional observations from a re-analysis of the deposited data

How the results depend on the processing

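Klf2 and Klf9 were called higher in every alternative. The number of KLF genes called higher was 4 in the reported fit and 3 or 4 with each tool, filter or scaling. It ran from 2 to 4 over the leave-outs, being 2 without knockout replicate 1 and 3 without knockout replicate 2. None was called lower in any. Over all genes, 1323 were called higher and 1533 lower. With no filter these counts were 547 and 744, with DESeq2 680 and 714, and over the leave-outs 372 to 1676 and 579 to 1712, lowest without knockout replicate 2 (588 and 867 without knockout replicate 1). With upper-quartile normalization 63.0% of calls were lower, against 53.7%. No scaling moved the median of all genes further than upper-quartile normalization (-0.030 on the log2 scale).

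Uncalled values near 0 changed sign. With upper-quartile normalization the log2 fold change was -0.015 for Klf4, -0.010 for Klf10 and -0.0062 for Spi1. Klf4 was at -0.0043 with a minimum of 10 CPM. Over the leave-outs Klf4 ran from -0.076 to 0.11, Klf10 from -0.048 to 0.088, Klf11 from -0.22 to 0.043 and Spi1 from -0.044 to 0.092, changing sign without wild-type replicate 2 (Klf4, Klf10, Spi1) or knockout replicate 2 (Klf11, Spi1 at -0.014, Mycn at 0.015). Mycn was at 0.0014 with a replicate block, 0.00032 with no filter, 0.0025 with DESeq2 and 0.0016 with limma-voom, and over the leave-outs it ran from -0.12 (adjusted p = 0.0358, wild-type replicate 2 left out) to 0.12 (adjusted p = 0.0314, wild-type replicate 1 left out). The cause of these shifts was not tested. Of 393 values of the 36 other named genes under the alternatives, 334 kept direction and call.

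The replicate numbers are not said to pair the samples, and deviations of same-numbered libraries correlated at 0.0349 across genes. With the replicate block 1644 genes were called higher and 1779 lower, and the same 4 KLF genes were called. Hba-a1 was called higher with the block (0.25, adjusted p = 0.00278).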
